A study of Neurospora discreta with 48 samples.

Results

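Short gene models are predicted genes that take up little of the genome sequence from start to end, and 840 of them were described here in the filamentous fungus Neurospora discreta. They are the rows of the authors' deposited comparison table whose span, end minus start plus 1, was under 600 bp, whose ID did not contain the text snap, and whose mean over both arms of the comparison was under 10000 normalized counts. Of the 9280 rows of the table, 1135 were under 600 bp. Of these 1135, 291 had a snap ID and 4 others were at or above the level limit, which left 840 short models, 9.05% of all rows. They were set against the 5327 models of 1000 to 3000 bp that met the same conditions on ID and level, 57.4% of the rows.

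The sequenced RNA came from pads of mycelium that the labels describe as holding mycelia and conidia, grown from 4 strains: the African parent FGSC8831 (high RI), the North American parent FGSC8578 (low RI), and the progeny N309-89 (high RI) and N309-50 (low RI). The labels do not spell out RI. All pads were held at 25 °C in low glucose media in a cycle of 12 h light and 12 h dark and sampled at 15 min, 1 h and 2 h of light and at 2 h of dark, with 3 replicates per strain and time and 48 libraries in all. The comparison table covers 6 of these libraries, FGSC8831 and FGSC8578 at 15 min of light, and the other 42 libraries were not analysed here. The table's headers call its arms A and B without naming strains. The table's own name puts FGSC8578 before FGSC8831, which would make B FGSC8831 and A FGSC8578, but nothing in the headers states it, so directions are given as B and A. The strains differ in their whole genome, and no label tells if the 3 replicates were grown as separate cultures, which means that the authors' p-values may measure technical spread only.

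A gene model is a stretch of genome that a prediction program, with or without evidence from RNA, marks as a gene. Short models can be real genes for small proteins, such as secreted proteins, ribosomal proteins and peptide pheromone precursors in fungi, or fragments of a longer gene whose other parts the program did not join. A short transcript yields fewer sequenced fragments than a long transcript present in as many copies, so its counts are low and their relative error is large. The table pairs no ID with a gene name, so markers of conidia or of sexual tissue could not be looked up and no short model is given a function. No genome sequence was used here and no sequences are shown. The sources used here give neither a genome build nor an annotation, nor do they state if reads were counted by strand. Coordinates are as in the authors' deposited table. Where a model overlaps another, on either strand, its reads over the shared stretch cannot be told apart from its partner's.

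The short models were spread over the genome. They lay on 37 of the 64 scaffolds, 419 on the plus strand and 421 on the minus strand. Their span ran from 150 to 599 bp, with a median of 361 bp and quartiles of 272 and 478 bp. The spans were not even: 85 models were 260 to 279 bp long and 74 were 280 to 299 bp, against 45 at 240 to 259 bp and 40 at 300 to 319 bp. This peak consisted mostly of 1 kind of ID. Of the 204 models of 240 to 299 bp, 76.5% had an ID beginning estExt_fgenesh3_kg, against 25.2% of the 115 models of 150 to 239 bp and 28.9% of the 173 models of 500 to 599 bp.

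**Figure D1:**
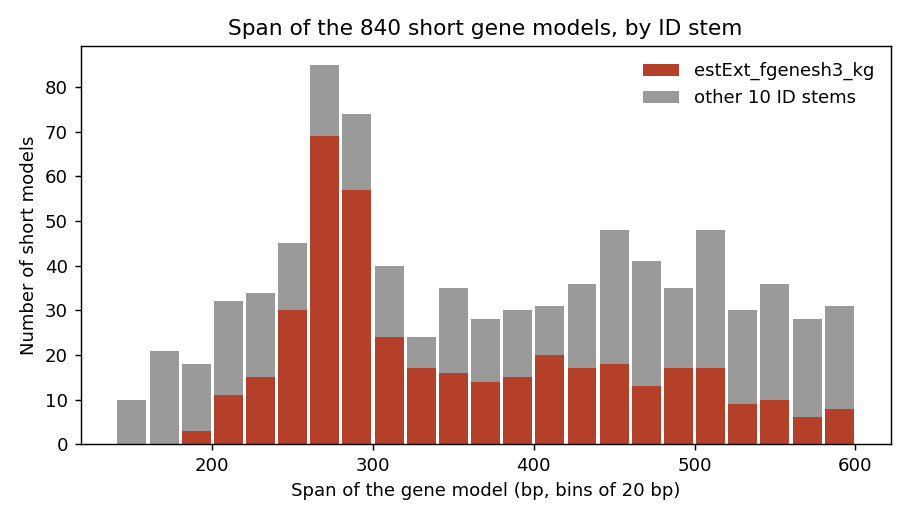
Number of short models (vertical axis) in bins of 20 bp of span (horizontal axis, bp), with models whose ID begins estExt_fgenesh3_kg in 1 colour and the other 10 ID stems in grey. The bins 260 to 279 bp and 280 to 299 bp stand above the rest with 85 and 74 models, of which 69 and 57 have that stem.

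The part of the ID before its numbers, here called the stem, differed in make-up between short models and models of 1000 to 3000 bp. The stem estExt_fgenesh3_kg accounted for 406 short models (48.3%), against 890 models of 1000 to 3000 bp (16.7%). The stem e_gw1 accounted for 124 short models (14.8%), against 5.50% of the models of 1000 to 3000 bp. The stems estExt_Genewise1Plus and estExt_Genewise1 were common among the longer models and rare among short ones. The first made up 2.62% of short models and 23.6% of the models of 1000 to 3000 bp, and the other 1.31% and 16.3%. The labels and headers do not say what the stems stand for.

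In 44.3% of short models (372) the span was a multiple of 3, against 35.8% of the models of 1000 to 3000 bp. A model with neither introns nor untranslated regions has a span that is a multiple of 3, since each amino acid is coded by a triplet, and a span with introns or untranslated regions takes any length. The share differed by stem. It was 33.5% for estExt_fgenesh3_kg, against 62.2% for gw1, 65.3% for e_gw1 and 69.7% for fgenesh3_pm. Over all 11 stems it ran from 27.3% of the 11 estExt_Genewise1 short models to 80.0% of the 10 with the stem aug.

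Short models were low in level, also per kb of span. Introns are part of the span, so this is not a level per length of transcript. Levels here are the mean over both arms of counts divided by size factors, as deposited by the authors. The median mean was 17.2 normalized counts in short models (quartiles 5.08 and 60.5), against 295 in models of 1000 to 3000 bp. Per kb of span the median was 50.4 normalized counts in short models (quartiles 15.5 and 163), against 161 in models of 1000 to 3000 bp (quartiles 56.1 and 429) and 122 over all rows. In all, 71.9% of short models (604) had a mean below 50 normalized counts, against 14.8% of the models of 1000 to 3000 bp. Together the short models held 1.03% of the summed means in B and 1.09% in A. Since a bulk sample was sequenced, fewer cells that express a model and less RNA per cell cannot be told apart.

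Level per kb did not climb steadily with span below 600 bp. Its median was 45.8 normalized counts per kb at 150 to 239 bp, 38.1 at 240 to 299 bp, 55.7 at 300 to 399 bp, 70.4 at 400 to 499 bp and 57.7 at 500 to 599 bp. Just above the limit it was 106 at 600 to 699 bp, and it was 172 at 1000 to 1499 bp and 153 at 2000 to 3000 bp. All 5 bins below 600 bp thus had lower medians than the bins above it.

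The gap in level per kb was uneven between stems. The estExt_fgenesh3_kg short models had a median of 51.8 normalized counts per kb, against 556 in models of 1000 to 3000 bp with the same stem, a ratio of 0.0932. For fgenesh3_kg the medians were 81.2 per kb in 71 short models and 829 per kb in 110 models of 1000 to 3000 bp, a ratio of 0.098. The gap was smaller for e_gw1, at 25.6 and 80.6 per kb, and for gw1, at 48.8 and 70.0 per kb. It ran the other way for fgenesh3_pm, with 98.1 per kb in 76 short models and 35.7 per kb in 185 models of 1000 to 3000 bp, and for aug, with 186 per kb in 10 and 29.4 per kb in 53. Both stems whose ratio was under 0.1 thus end in kg.

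**Figure D2:**
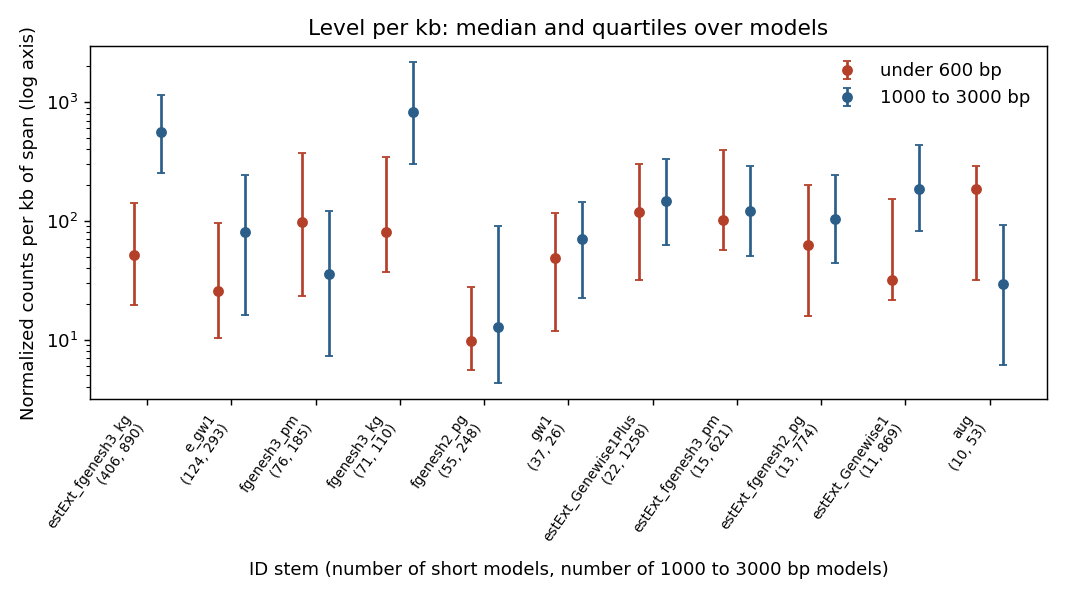
Median normalized counts per kb of span (points, log axis) with quartiles (bars) for each ID stem, for short models and models of 1000 to 3000 bp, with the number of models of each class under the stem. For estExt_fgenesh3_kg the median is 51.8 per kb in short models and 556 per kb in models of 1000 to 3000 bp, while for fgenesh3_pm it is 98.1 and 35.7.

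Most short models were not called different between the arms by the authors' test. A model is called here when its DESeq p-value adjusted over all 9280 rows, as deposited, is under 0.05. By this rule 109 of the 840 short models (13%, exact binomial 95% interval 10.8 to 15.4%, counting error only) were called, against 15.0% of all rows and 15.1% of the models of 1000 to 3000 bp. Of the called short models, 33 were higher in B (3.93% of short models, against 6.93% of all rows) and 76 were higher in A (9.05%, against 8.03% of all rows). The share of called models that was higher in B was thus 30.3% (exact interval 21.8 to 39.8%) in short models, against 47.5% in models of 1000 to 3000 bp.

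The contrast in direction was smaller at matched level. Models of 1000 to 3000 bp, weighted so that they had the short models' distribution over 8 tiers of mean, had 13.9% called, 0.93 percentage points more than short models. Of those calls 35.0% were higher in B, which lies within the counting interval of the short models' share. Matched on level per kb instead of counts, the share higher in B was 43.3%, above that interval. The lean to A was stronger in the commonest stem, estExt_fgenesh3_kg, of whose 58 called short models 13 were higher in B. Without that stem the share higher in B was 39.2% in short models, against 36.0% in longer models at matched level. That 39.2% still lies within the counting interval of the share in all called short models. With snap models kept it was 35.1%, against 34.4%. Direction varied with level among the longer models too: in models of 1000 to 3000 bp the share higher in B was 27.1% of 59 calls at means of 10 to 30 and 77.4% of 31 calls at means of 3000 to 10000.

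The other call rules, bar a limit on level, gave shares of short models near those of all rows too. The edgeR false discovery rate in the authors' deposited table was under 0.05 for 166 short models (19.8%), against 21.4% of all rows. Both tools called 108 short models (12.9%), against 14.5% of all rows. A DESeq adjusted p under 0.01 was met by 76 short models (9.05%), against 9.6% of all rows. Among models with a mean of at least 50 the share stood higher, with 47 of 236 short models called (19.9%, exact interval 15.0 to 25.6%), against 15.3% of the 7035 rows at that level and 15.6% of the models of 1000 to 3000 bp at matched level. At that limit short models are high per length, with a median of 315 normalized counts per kb, against 207 in models of 1000 to 3000 bp. The 58 short models called by edgeR alone had a median mean of 7.75 normalized counts, and 48 of them were higher in A.

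By tier of mean, the share of short models called was 1.53% of 131 at 0 to 3 normalized counts, 4.74% of 190 at 3 to 10 and 15.5% of 207 at 10 to 30. It was 24.1% of 162 at 30 to 100, 15.1% of 93 at 100 to 300, and 26.8% of 41 at 300 to 1000. In the models of 1000 to 3000 bp it was 2.88%, 12.2%, 19.6%, 16%, 16.9% and 12.4% in the same 6 tiers. The order of the classes therefore changed with level. The share of short models called was lower at means of 3 to 10, where the exact intervals of 2.19 to 8.80% and 7.61 to 18.2% overlapped, and higher at 300 to 1000, where those of 14.2 to 42.9% and 10.8 to 14.1% just missed each other. In the 300 to 1000 tier 8 of the 11 called short models were higher in B, whereas from 10 to 30 it was 6 of 32. Of the 16 short models with a mean of 1000 or more, 2 were called, both higher in B.

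**Figure D3:**
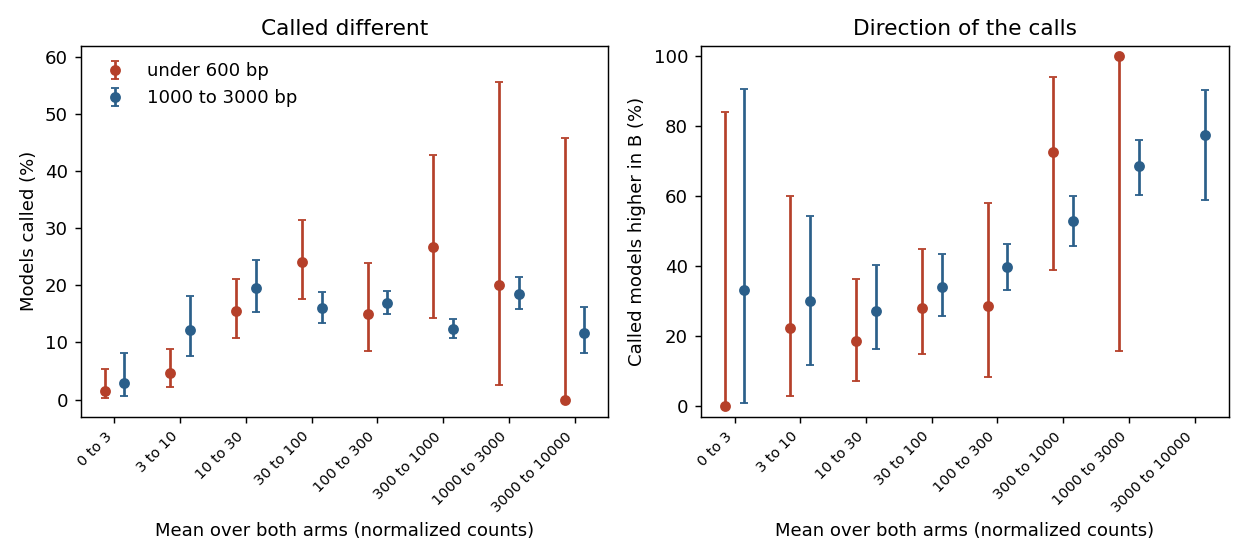
Percent of models called (left) and percent of called models higher in B (right) by tier of mean over both arms (horizontal axis, normalized counts), for short models and models of 1000 to 3000 bp, with exact 95% intervals for counting error. The share of short models called is lower at means of 3 to 10 (4.74% against 12.2%) and higher at 300 to 1000 (26.8% against 12.4%), and in both classes the share higher in B is lower at low means.

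The calls also varied along the range of span. At 150 to 239 bp 8.70% of short models were called and at 240 to 299 bp 8.33%, against 15.9%, 15.7% and 15.6% in the 3 bins that follow. The models of 600 to 699 bp, just past the limit, had 24.2% called. The shortest bins also had the lowest medians of mean, 8.90 and 10.6 normalized counts, against 71.1 at 600 to 699 bp.

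Over all 806 short models above 0 in both arms, called or not, log2 of B over A had a median of -0.23, against 0.03 in models of 1000 to 3000 bp and -0.21 in those at matched level. It was positive in 341 short models (42.3%). Without the stem estExt_fgenesh3_kg the median was -0.14 in short models, against -0.18 in longer models at matched level. The spread, taken as the distance between the 16th and the 84th percentile divided by 2, was 1.24 in short models, against 0.78 in models of 1000 to 3000 bp and 1.26 at matched level. The pooled value at matched level thus lay close to that of the short models, but it joins tiers of mean that differed in opposite directions. At matched level per kb the longer models had a spread of 0.93. The median depends on the scaling: with the summed means of the arms set equal, which lowers each log2 value by 0.17, it was -0.41 in short models.

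**Figure D4:**
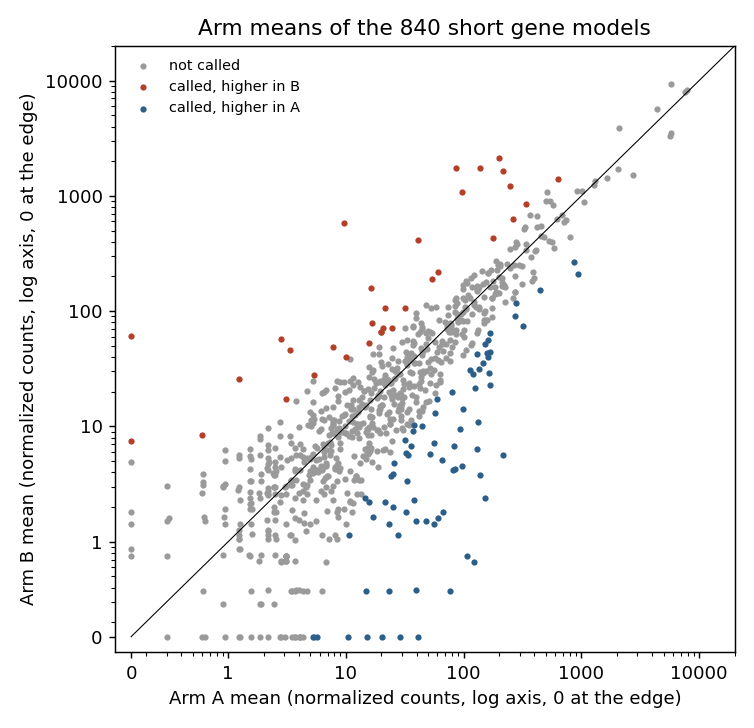
Arm B mean against arm A mean of the 840 short models (normalized counts, log axes, values of 0 drawn at the edge), with called models coloured by direction. The cloud widens toward low means, 33 called models lie above the diagonal and 76 below it, and log2 of B over A runs from -7.67 to 5.90 among the models above 0 in both arms.

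The spread narrowed with level. Taken in the same way, the spread of log2 of B over A in short models was 1.64 at means of 0 to 3, 1.39 at 3 to 10, 1.28 at 10 to 30, 1.27 at 30 to 100 and 0.71 at 100 to 300. In models of 1000 to 3000 bp it was 1.83, 1.68, 1.28, 0.94 and 0.70 in the same tiers. Short models were narrower up to 10 and wider at 30 to 100, where they also had more calls, and at 300 to 1000, with 0.89 against 0.61. The error that the edgeR columns imply for each log2 fold change, its absolute value divided by the square root of its likelihood ratio, had a median of 0.656 in 476 short models with a ratio of at least 1, against 0.587 at matched level. By tier the classes were close at low means, with 1.33 in short models and 1.34 in models of 1000 to 3000 bp at 0 to 3, and 0.859 and 0.836 at 3 to 10. The error was 0.648 and 0.587 at 10 to 30, and 0.511 and 0.445 at 30 to 100. It was 0.436 and 0.361 at 100 to 300, from 50 short models, and 0.422 and 0.328 at 300 to 1000, from 26.

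Called short models had large ratios and low means. With models at 0 in an arm taken at their lower bound, 83 of the 109 called short models differed at least 4-fold, 21 of 33 among those higher in B and 62 of 76 among those higher in A. Over all called rows the corresponding shares were 36.4% of those higher in B and 57.0% of those higher in A. The median log2 difference of the called short models was 2.40 among those higher in B and 2.92 among those higher in A, against 1.71 and 2.22 over all called rows. Their median mean was 63.6 normalized counts among those higher in B and 34.6 among those higher in A, against 428 and 125 over all called rows. These ratios were not compared at matched level. The low arm was at 0 in 9 called short models and held 1 to 3 counts over its 3 libraries in another 9.

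Among the called short models with a mean of at least 50, the largest ratio in favour of B was that of e_gw1.1.2579.1, 379 bp long on scaffold 1 from 4350353 to 4350731. It had 578 normalized counts in B and 9.67 in A in the authors' deposited table, a log2 ratio of 5.90 with an implied error of 0.75 and an adjusted p listed as 0 at 4 decimals. Its nearest model, 516 bp away on the same strand, had 737 in B and 667 in A in the authors' deposited table and was not called, so the difference was not shared by that neighbour.

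The next was estExt_fgenesh3_kg.C_130002, 506 bp long on scaffold 13 from 10731 to 11236. The authors' deposited table gave it 1743 normalized counts in B and 85.9 in A, a log2 ratio of 4.34 with an implied error of 0.72. Its neighbour at 9865, which has a snap ID, had 313 in B and was listed at 0 in A in the authors' deposited table. A second short model lay 648 bp on the other side, at 11885 to 12483 of the same scaffold. The authors' deposited table gave that one 414 in B and 41.2 in A, a log2 ratio of 3.33. Near this end of scaffold 13, 3 neighbouring models were thus all higher in B.

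Scaffold 13 held another of the largest ratios, at 298470 to 299015, with 1085 normalized counts in B and 97.9 in A in the authors' deposited table, a log2 ratio of 3.47. Its nearest model, 1160 bp away on the same strand, had 32896 in B and 2426 in A in the authors' deposited table and was called in the same direction. Scaffold 13 also had the highest share of short models of the 23 scaffolds with at least 40 rows, 39 of 269 rows (14.5%). Of these 39 short models 17.9% were called, 3 in favour of B and 4 in favour of A, against 24.5% of all rows of the scaffold.

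A pair of further short models with high levels in B had neighbours of unlike direction. The model on scaffold 6 at 1550128 to 1550604 had 2129 normalized counts in B and 201 in A in the authors' deposited table, a log2 ratio of 3.40. Its neighbour 97 bp away on the same strand had 1646 in B and 157 in A in the authors' deposited table, a log2 ratio of 3.39, so the pair differed by nearly the same factor. The model on scaffold 1 at 3979113 to 3979559 had 1763 in B and 137 in A in the authors' deposited table, a log2 ratio of 3.68. Its neighbour 779 bp away on the same strand had 269 in B and 2283 in A in the authors' deposited table, a log2 ratio of -3.08, so here adjoining models were called in opposite directions.

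The remaining 5 of the 10 largest ratios in favour of B lay on scaffolds 13, 4, 3, 1 and 7, with log2 ratios of 3.33 to 2.29. The model on scaffold 4 at 1839307 to 1839874 had 160 normalized counts in B and 16.3 in A in the authors' deposited table. On scaffold 3, the model at 229455 to 230015 had 1651 in B and 218 in A in the authors' deposited table. Its nearest model was itself short, the shortest of all. That 150 bp model, at 226836 to 226985, had 1085 in B and 508 in A in the authors' deposited table, with an adjusted p of 0.0617, and so missed the threshold. The model on scaffold 1 at 1744561 to 1744810 had 106 in B and 21.3 in A in the authors' deposited table, and it shares 10 bp with a model on the opposite strand that had 5116 in B and 1591 in A there. With the strand setting unknown, reads of this abundant partner over those 10 bp cannot be told apart from its own.

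Among the called short models higher in A with a mean of at least 50, the low arm was often close to nothing. The largest ratio was that of e_gw1.2.1561.1, 582 bp long on scaffold 2 from 1461587 to 1462168, with 0.666 normalized counts in B and 122 in A in the authors' deposited table. Its B mean stands for 2 counts, so its level was 184-fold lower in B with an exact counting interval of 50.8 to 1517-fold. For e_gw1.9.930.1, 584 bp long on scaffold 9 from 464816 to 465399, the authors' deposited table gave 0.750 in B and 108 in A. The B mean again stands for 2 counts, which gives a level 144-fold lower in B with an interval of 39.7 to 1185-fold. The nearest model of the first had 225 in B and 445 in A in the authors' deposited table and was not called. The nearest model of the other had 0 in B and 6.76 in A there, with an adjusted p of 0.0338.

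A 329 bp model on scaffold 7 at 1615743 to 1616071 had 2.39 normalized counts in B and 153 in A in the authors' deposited table, a log2 ratio of -6.0 with an implied error of 0.56. The B mean stands for 7 counts over all 3 libraries, and the neighbour 66 bp away on the other strand had 120 in B and 197 in A in the authors' deposited table and was not called. On scaffold 18 at 350448 to 350702, a 255 bp model had 5.65 in B and 217 in A in the authors' deposited table, a log2 ratio of -5.26. It shares 6 bp with a model on the opposite strand that had 1468 in B and 1570 in A in the authors' deposited table. In both cases the neighbour was not called, while the short model was close to 0 in B.

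Of the other 6, those on scaffold 4 at 2900340 to 2900766 and scaffold 2 at 3218440 to 3218745 had log2 ratios of -5.18 and -4.41 beside neighbours that were not called. A pair on scaffold 8 and a pair on scaffold 6 moved together. The short model on scaffold 8 at 311878 to 312195 had 6.38 normalized counts in B and 129 in A in the authors' deposited table, and a model that overlaps it by 5 bp on the same strand had 91.0 in B and 411 in A. On scaffold 6, the short model at 826269 to 826772 had 11.0 in B and 134 in A in the authors' deposited table. Its neighbour, 41 bp away on the same strand and itself a short model, had 74.5 in B and 321 in A in the authors' deposited table. Last of the 6 were those on scaffold 6 at 325129 to 325477, with a log2 ratio of -3.30, and on scaffold 4 at 35335 to 35631, with -2.88.

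The 10 short models with the highest means were not called. The highest, on scaffold 19 at 130311 to 130798, had 8367 normalized counts in B and 7904 in A in the authors' deposited table, with an adjusted p of 1. On scaffold 2, the model at 1653269 to 1653839 had 8040 in B and 7656 in A in the authors' deposited table, also with an adjusted p of 1. On scaffold 1 at 2858790 to 2859224, the authors' deposited table gave 9417 in B and 5726 in A, with an adjusted p of 0.413. That model had the highest level per kb of all short models, 17406 normalized counts per kb. The 4 models under 600 bp that the level limit left out were not called either. The most abundant of them, on scaffold 18 at 184512 to 184872, had 646383 in B and 408127 in A in the authors' deposited table, with an adjusted p of 0.864.

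Besides the scaffold 6 model at 1550128, the other called short model with a mean of 1000 or more lay on scaffold 3 at 1590365 to 1590916. It had 1401 normalized counts in B and 631 in A in the authors' deposited table, a log2 ratio of 1.15 with an adjusted p of 0.0267. Its neighbour, 343 bp away on the opposite strand, had 1383 in B and 657 in A in the authors' deposited table and was called too.

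Of the short models, 34 (4.05%, exact interval 2.82 to 5.61%) were listed at 0 in an arm, 27 at 0 in B and 7 at 0 in A. The share was 0.788% in models of 1000 to 3000 bp and 5.59% in those at matched level, so short models were not more often at 0 than longer models with as few counts, though more often than longer models at matched level per kb (1.29%). The arm above 0 reached 41.0 normalized counts at most where B was at 0, and 60.4 where A was at 0. Of these models 7 of the 27 at 0 in B and 2 of the 7 at 0 in A were called. The only one with 50 or more in the other arm lay on scaffold 9 at 217038 to 217295, with 60.4 normalized counts in B and 0 in A in the authors' deposited table. Against a floor of 3 counts over arm A, a mean of 0.961, it was at least 62.9-fold higher in B, and its neighbour had 148 in B and 4.34 in A in the authors' deposited table.

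Low means can be read as whole counts, because each library's count is worth a fixed value there. A mean under 3 was found for 180 short models in B and 128 in A. In B, 27 of the 180 had counts in none of the 3 libraries, 33 in 1, 64 in 2 and 56 in all 3. In A, 7 of the 128 had counts in none, 16 in 1, 62 in 2 and 43 in all 3. In 2 of the libraries some whole numbers never occur although higher ones do (2 in library 1 of B, and 1, 4 and 6 in library 3 of A), so the counts of those libraries may have been rescaled before averaging, and counts and intervals that draw on them are approximate. An arm listed at 0 therefore rests on few fragments, and the absence of a transcript was not shown for any of these models.

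The 5 shortest models, of 150 to 156 bp, differed widely in level. The 153 bp model on scaffold 4 at 2597213 to 2597365 was the only one of them called, with 0.375 normalized counts in B and 14.9 in A in the authors' deposited table. Its B mean stands for 1 count, a level 39.8-fold lower in B with an exact counting interval of 7.15 to 1573-fold. The 3 models of 156 bp had means in B of 0.666, 44.4 and 24.7 and in A of 2.79, 59.8 and 5.26 in the authors' deposited table, and none was called. At the other end, 2 of the 5 longest short models, of 598 and 599 bp, were called, and so was 1 of the 5 shortest models left out, of 600 and 601 bp. The called model outside the limit lay on scaffold 8 at 704144 to 704743, with 3.72 in B and 24.1 in A in the authors' deposited table.

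In position, short models stood out by their closeness to a model on the same strand. At least 1 bp was shared with another model by 63 short models (7.5%, exact interval 5.81 to 9.49%), against 5.99% of the models of 1000 to 3000 bp (5.37 to 6.66%). The largest overlap was 28 bp, and no short model lay inside another. Overlap with a model on the same strand was found for 23 short models (2.74%), against 0.394% of the models of 1000 to 3000 bp, while overlap on opposite strands was found for 4.76% and 5.59%. A model within 200 bp, overlapping or not, was the nearest for 280 short models (33.3%), against 22.3% of the models of 1000 to 3000 bp. On the same strand the shares were 14.4% (121 short models) and 3.84%, and on opposite strands 18.9% and 18.4%. The excess of close neighbours was thus on the same strand. It was found with and without the commonest stem: 19.2% of the estExt_fgenesh3_kg short models had a same-strand neighbour within 200 bp, against 4.74% of the models of 1000 to 3000 bp with that stem, and for all other stems together the shares were 9.91% and 3.66%. The overlap in all did depend on that stem, since without it 5.30% of short models and 5.75% of the models of 1000 to 3000 bp shared at least 1 bp with another model. It also depended on level. At means of at least 50, 33 of 236 short models (14.0%) overlapped another model, against 295 of 4538 models of 1000 to 3000 bp (6.50%). On the same strand the shares at that level were 5.93% and 0.397%.

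Other features of position were alike in both classes. Within 20000 bp of the outermost row of a scaffold lay 4.64% of short models and 4.66% of the models of 1000 to 3000 bp, and on scaffolds with under 40 rows lay 2.14% and 1.95%. Among the 23 scaffolds with at least 40 rows, short models made up from 2.38% of the rows (scaffold 21) to 14.5% (scaffold 13). Calls were absent from some scaffolds: none of the 18 short models on scaffold 14 and none of the 10 on scaffold 16 were called, where 15.5% and 22.9% of all rows were. On scaffold 11, 1 of 36 short models was called, against 6.62% of all its rows, and on scaffold 18, 1 of 8, against 33.3% of all its rows. Other scaffolds went the other way, such as scaffold 12, with 21.7% of 23 short models called against 14.2% of its rows. On scaffold 4 the shares were 18.8% of 69 short models and 17.4% of its rows. The numbers per scaffold are small, and differences between scaffolds were not tested. Of the 193 short models in divergent pairs with at most 1000 bp between their starts, 15 were called, 11 of them with the higher mean in A and 4 in B. That is 7.77%, against 8.0% of all 1912 rows in such pairs.

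Called short models often had a neighbour called in the same direction. The nearest model was called in the same direction for 35 of 109 called short models (32.1%), against 147 of 804 called models of 1000 to 3000 bp (18.3%). With the neighbour at most 200 bp away the counts were 18 of 44 (40.9%), against 35 of 148 (23.6%), and with the neighbour farther away 17 of 65 (26.2%), against 17.1%. Pairs in which both models are short enter these counts once for each model. Without the stem estExt_fgenesh3_kg the shares were 37.3% of 51 called short models and 18.6% of 687 called models of 1000 to 3000 bp. Among called models with a mean of at least 50 they were 36.2% of 47 and 16.8% of 684. The nearest model was called, in whichever direction, for 42 of the 109 called short models (38.5%) and 178 of the 804 longer ones (22.1%). Direction agreed in 35 of these 42 and 147 of these 178. The classes thus differed in how often the neighbour was called, and agreement in direction among called neighbours was alike.

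Short models whose own mean and whose neighbour's mean were at least 10 normalized counts were also compared with that neighbour, called or not. With a neighbour at most 200 bp away, overlapping included, log2 of (B + 1) over (A + 1) had the same sign in both models for 139 of 205 short models (67.8%), against 609 of 1059 models of 1000 to 3000 bp (57.5%). Across these 205 models Pearson's r was 0.52 and Spearman's rho 0.46, against 0.29 and 0.24 across the 1059. The values share the same 6 libraries and are not independent, so no p is given. For 24 of the 205 the neighbour was itself a short model, and a pair in which each is the other's nearest enters once for each model. Without the 2 models whose neighbours were farthest from the median, r was 0.50. By strand r was 0.59 for 90 short models with a same-strand neighbour, 0.47 without the 2 farthest, and 0.45 for 115 with an opposite-strand neighbour. Without overlap, at 0 to 200 bp, it was 0.58 and 0.34.

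**Figure D5:**
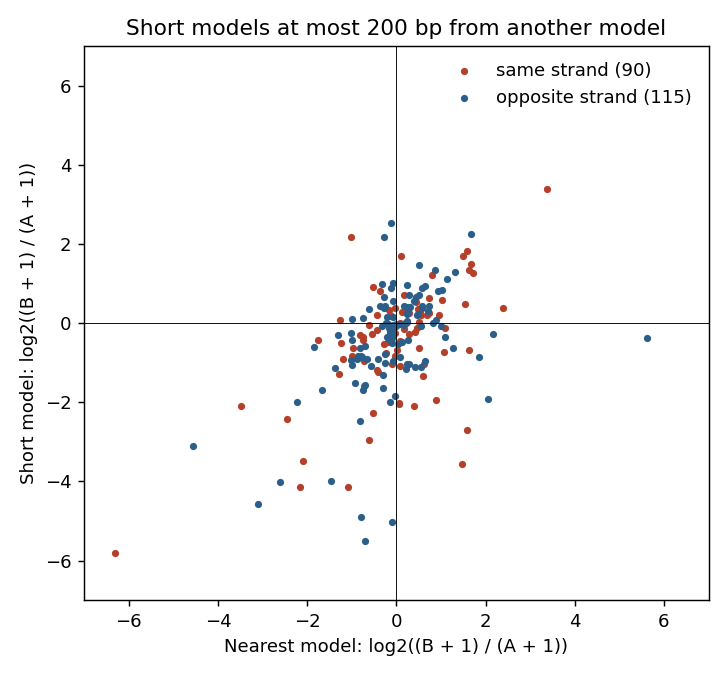
Log2 of (B + 1) over (A + 1) of short models (vertical axis) against that of their nearest model at most 200 bp away (horizontal axis), with both means at least 10 normalized counts. Points are short models, 90 with that neighbour on the same strand and 115 with it on the opposite strand. Most points lie in the lower left and upper right parts of the plot, with the same sign for 139 of 205 short models, and a few same-strand points reach far into the lower left.

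The likeness was lower at larger distances when both strands were pooled. By strand Spearman's rho was also lower beyond 200 bp, while r did not fall steadily with distance. At 201 to 1000 bp r was 0.37 across 167 short models, and 0.25 without the 2 farthest. Over 1000 bp it was 0.30 across 114 short models, and 0.15 without the 2 farthest, with the same sign in 56 (49.1%). On the same strand r was 0.28 across 75 short models at 201 to 1000 bp and 0.47 across 61 over 1000 bp. Opposite strands gave 0.45 across 92 and -0.06 across 53 at these distances. Without the 2 farthest the same-strand values were 0.11 and 0.29, and those of opposite strands 0.47 and -0.04. Over 1000 bp 29 of the 61 same-strand models had the sign of their neighbour. From the closest to the farthest pairs rho was 0.46, 0.34 and 0.34 on the same strand and 0.48, 0.38 and -0.02 on opposite strands. Among overlapping pairs r was 0.59 across 46 short models, and 0.73 without the 2 farthest. An example of a close pair with like values lay on scaffold 8 at 210038 to 210363. That short model had 0.375 normalized counts in B and 76.2 in A in the authors' deposited table. On its strand, the model 71 bp away had 0.385 in B and 110 in A in the authors' deposited table, so both were close to 0 in B. An example with opposite values lay on scaffold 5 at 1565990 to 1566402. The short model had 14.3 in B and 98.7 in A in the authors' deposited table, and the model 20 bp away on its strand had 1123 in B and 376 in A.

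Levels per kb were also set beside those of close neighbours. For 98 short models with a model within 200 bp on the same strand and no overlap, the median level was 88.5 normalized counts per kb in the short models and 105 per kb in their neighbours, and 47 of the 98 (48.0%) lay below their neighbour. The same count was 88 of 183 (48.1%) for models of 1000 to 3000 bp, with medians of 164 and 105 per kb. How closely the levels of a pair match was not tested. For 119 with such a neighbour on the opposite strand, the medians were 80.5 and 128 per kb, and 73 of the 119 (61.3%) lay below it. Among models of 1000 to 3000 bp it was 310 of 682 (45.5%), with medians of 160 and 129 per kb. The classes thus differed on opposite strands and were alike on the same strand in this count. Short models with a close neighbour on either strand thus had higher medians than the 50.4 per kb of all short models.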

How the data were processed

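The values come from 1 table deposited by the authors. The authors deposited in it the mean signal (normalized counts) over both arms and per arm, the ratio of the arm means and DESeq's raw and adjusted p-values, per the file headers. From edgeR it holds log2 values (fold change and average CPM), a score (likelihood ratio) and p-values with false discovery rates, per the file headers. Adjusted values cover all 9280 rows and are rounded to 4 decimals. The submitters' processing notes list TopHat2 2.1.1, HTSeq, DESeq, edgeR, SAMtools, cutadapt 1.3 and FastQC 0.11.4, without saying what each did. Apart from the whole counts recovered from low arm means, values per library were not used here, so total library depths are unknown and no count model was fitted. The worth of 1 count in those low means implies size factors of 1.11, 1.07 and 1.04 in A and 1.15, 0.889 and 0.866 in B.

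Log2 ratios are those of the B mean over the A mean. Matching weighted the models of 1000 to 3000 bp to the short models' shares of tiers with edges at 3, 10, 30, 100, 300, 1000, 3000 and 10000. Arm means under 3 were decomposed into whole counts of 3 libraries with a tolerance of 0.0004. Binomial intervals are exact (Clopper-Pearson, 95%), intervals of ratios are exact Poisson intervals of the low arm, and all cover counting error only. Named models are the 10 largest ratios per direction among called models with a mean of at least 50, the 10 highest means, calls with a mean of 1000 or more, models at 0 in an arm with 50 or more in the other, and the shortest and longest 5. The other models given as examples of pairs were chosen after their values were seen. The members and rules were chosen with earlier results of these data known. Scripts ran in Python 3.11.15 with numpy 2.4.6, pandas 2.3.3, scipy 1.17.1 and matplotlib 3.10.9 and were tested on simulated data. Alternatives changed the call rule, level filter, span limits, tiers, snap models, pseudocount and overlap.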

Additional observations from a re-analysis of the deposited data

Results flagged for a closer look

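The average log2 CPM from edgeR in the authors' deposited table was set beside the level computed from the arm means, after subtracting the median difference over rows with a mean of at least 100. It was higher by more than 1 on the log2 scale in 4 of the 236 short models with a mean of at least 50 (1.69%), against 43 of 7035 rows at that level (0.611%). The excess was 2.809 on scaffold 14 at 13161 to 13470, which had 174 normalized counts in B and 145 in A in the authors' deposited table and was not called. It was 1.137 on scaffold 7 at 1615743 to 1616071, the called model with 2.39 in B and 153 in A in the authors' deposited table. On scaffold 5 at 2287756 to 2288220 it was 1.086, with 220 in B and 391 in A in the authors' deposited table. On scaffold 4 at 2831956 to 2832393 it was 1.017, with 73.7 in B and 78.1 in A in the authors' deposited table. Its headers do not say over which libraries edgeR's average was taken, nor that these were the 6 compared alone. The excess is therefore a difference between deposited values and not a level in any named library.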

How the results depend on the processing

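Of 68 alternative values, 53 stayed near the reported value (counts of models within 1.5 times, other values within their interval), 13 moved and 2 reversed. Some of the 53 could not move. Settings that changed only the longer models left the short models' own direction, median, spread and share at 0 as they were. The tally is therefore no measure of how stable the contrast with longer models was. The number of short models called was 166 by edgeR, 47 with a mean of at least 50, 71 under 450 bp and 51 without estExt_fgenesh3_kg. The difference in percent called from models of 1000 to 3000 bp at matched level, -0.93 points, was -3.45 by edgeR and turned to 0.958 with a DESeq adjusted p under 0.01 and to 4.36 with a mean of at least 50. The cause of both turns of sign was not tested. With a mean of at least 50, the median log2 ratio of short models was -0.067, the spread 0.864, the percent at 0 in an arm 0 and the median level 315 per kb, which by construction exceeds the full value. The median log2 ratio was -0.41 with equal arm totals, the median level 40.6 per kb with snap models kept, and the percent overlapping 0 at 50 bp shared and 5.30 without estExt_fgenesh3_kg. Matching on level per kb, leaving out overlapping models or estExt_fgenesh3_kg, equal totals, a likelihood ratio of at least 4 and the splits of position by stem and level were chosen after seeing the data. Matched on level per kb, the models of 1000 to 3000 bp had 3.07 points more called, 43.3% of calls higher in B, a median log2 ratio of -0.07, a spread of 0.933 and 1.29% at 0. No paired analysis was possible because the table holds 1 mean per arm and no replicate values, and leaving out replicates was not run for the same reason. Counts per library are low: 180 short models had a mean under 3 in B and 128 in A.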
